A study of Mus musculus with 2 samples.

Results

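Vesicle release at the presynaptic terminal was described here through 31 genes, chosen by name for their place in the release machinery, with earlier results of these data known. All 31 were among the 32285 genes counted in 2 single-nucleus RNA libraries of mouse hippocampus. One library was from CAPZA2+/- mice, which carry 1 knocked-out allele of Capza2 (the gene of an actin capping protein subunit), and is called the heterozygote library below, and the other was from wild-type mice. The hippocampi had no drug or fixation before nuclei were isolated, and neuronal and glial nuclei were sequenced together. Strain, age, sex and whether animals were pooled are not given in the sources used here. Each genotype had 1 library, so every difference between them has no replicate check, no test was made, and all intervals below are exact 95% intervals that cover counting error only.

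At a terminal, transmitter is loaded into vesicles, which are tethered by synapsins and carried to the active zone, a protein lattice built from RIM, Bassoon, Piccolo, ELKS and liprin proteins. There Munc13 and CAPS proteins prime them by helping the vesicle SNARE protein synaptobrevin to zip up with syntaxin and SNAP25 on the plasma membrane. Complexin and tomosyn hold or clamp the SNAREs, and synaptotagmins sense calcium and set off fusion. Most of these proteins exist as paralogues, and which paralogue a neuron uses is known to differ between hippocampal cell types and to go with differences in release probability and short-term plasticity. Nuclei hold the transcripts of the parent neuron, not the proteins of its terminals.

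The heterozygote library held 62702888 UMIs (unique molecular identifiers, 1 per captured RNA molecule) in 7801 barcodes and the wild-type library 58701532 in 6512. After filters 6795 and 6094 nuclei remained, with a median of 5770 and 6658.5 UMIs, and 10 barcodes were shared by both. Capza2 itself stood at 67.5 CPM (UMIs per 1000000 UMIs) in the heterozygote and 86.0 CPM in the wild-type library, a log2 ratio of -0.35 (-0.41 to -0.29), and which part of the gene was removed is not given, so 3' reads need not report the loss in full. Clusters were named from marker genes, with all 31 release genes kept out of both the clustering genes and the markers. Of the 12889 nuclei, 7369 fell into 9 neuron-like types, called below by short names: dentate granule (2054 heterozygote and 1485 wild-type nuclei), CA1 pyramidal (764 and 850), CA2 pyramidal (142 and 234), CA3 pyramidal (216 and 202), subicular, which stands for subicular, entorhinal or cortical excitatory (269 and 388), and the interneuron types Sst (105 and 122), Pvalb (74 and 116), Vip or Cck (91 and 131) and Lamp5 (51 and 75). The CA2 type also took in nuclei with hilar mossy cell markers, which split from it only at a finer clustering. One shallow cluster led by hemoglobin genes held 226 heterozygote but 31 wild-type nuclei and stayed unnamed. Markers of choroid plexus epithelium summed higher in the heterozygote library in all 9 neuron types, with 199 and 73.8 CPM in dentate granule nuclei, where 0 and 2 of the 7 markers were at 0, and their part in the differences between libraries was not tested. The number of these 7 markers that were higher ran from 2 in Pvalb nuclei, where 3 and 4 were at 0, to 6 in dentate granule nuclei.

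The release genes took up 1.45% of all UMIs in the heterozygote and 1.41% in the wild-type library, and between 1.30% (CA1, wild type) and 2.002% (CA3, heterozygote) in the 9 neuron types. Glial nuclei, which should carry little of this machinery, gave the background. Counted per nucleus, 26 of the 31 genes were higher in all 9 neuron types than in oligodendrocyte, microglia and astrocyte nuclei in both libraries. The same held for 70% of the 10421 genes that reached 200 UMIs over the libraries in some neuron type, and neuronal nuclei hold more UMIs than glial ones. Syt1, the main calcium sensor of fast release, gave 92.5 and 70.6 UMIs per CA3 nucleus in the heterozygote and wild-type libraries, against 0.815 and 0.705 per oligodendrocyte nucleus. By CPM 13 of 31 were higher in every neuron type in both libraries, where 7.3% of the 10421 genes were, and glial nuclei held a median of 1469 to 2681.5 UMIs against at least 6278 in every neuron type. For Vamp1 and Vamp2, the vesicle SNARE genes, no neuron type exceeded all 3 glial types in CPM, and Vamp2 gave 0.403 and 0.358 UMIs per dentate granule nucleus against 0.363 and 0.319 per astrocyte nucleus. Cplx2 exceeded all 3 by CPM in 0 and 1 of the neuron types, Sv2a in 0 and 3, and Cplx1 in 4 and 2.

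Across neuron types, most paralogue families held 1 or 2 genes that differed widely in level, such as Sv2b, Sv2c, Cadps2 and Unc13c, while Rims1, Rims2 and the SNARE and scaffold genes had narrower ranges. Rims3 is left out of this, since its few UMIs give no stable range. Highest and lowest types, here and below, are among the 9 named types. Further excitatory clusters without a regional name can lie outside that range. A gene was counted if the 2 libraries together held 200 UMIs or more of it in some type, which 30 of the 31 passed (Rims3 did not). Of these, 22 of 30 had their highest CPM in the same type in both libraries, where 50.2% of the 10421 genes past that minimum did. For 10 of the 30 the highest type had at least 4 times the CPM of the lowest in both libraries, where 18.6% of all genes did. These 10 were Syn3, Syt7, Syt10, Unc13b, Unc13c, Cplx2, Sv2b, Sv2c, Cadps2 and Slc17a7. Dentate granule nuclei were the highest type in both libraries for 7 genes, CA3 for 5, Lamp5 for 4, the subicular and the Vip or Cck types for 2 each, and CA2 and Pvalb for 1 each. CA1 and Sst nuclei were highest for 0. How all genes divide over the highest types is not given here, so these counts cannot be called particular to release genes. By CPM alone, Rims2, Cplx1 and Sv2a were higher in every named interneuron type than in every named excitatory type in both libraries (3 genes, where 3.18% of all genes were). Syt7 and Slc17a7 went the other way round (2 genes, where 2.67% were). For Cplx1 the intervals of Lamp5 and subicular nuclei overlapped in the wild-type library. Of the excitatory clusters without a regional name, number 11 held Rims2 at 1027 CPM in the heterozygote library, above Vip or Cck nuclei. Number 12 held Syt7 at 134 CPM in the wild-type library, below Pvalb nuclei. These shares describe the release genes beside all genes and carry no test. Release genes passed the UMI minimum in more types per gene on average than all genes did, so the shares are not like for like. UMI counts depend on transcript and gene length, so levels are compared below for 1 gene across types, or as a ratio of 2 genes across types, and not between genes.

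**Figure D1:**
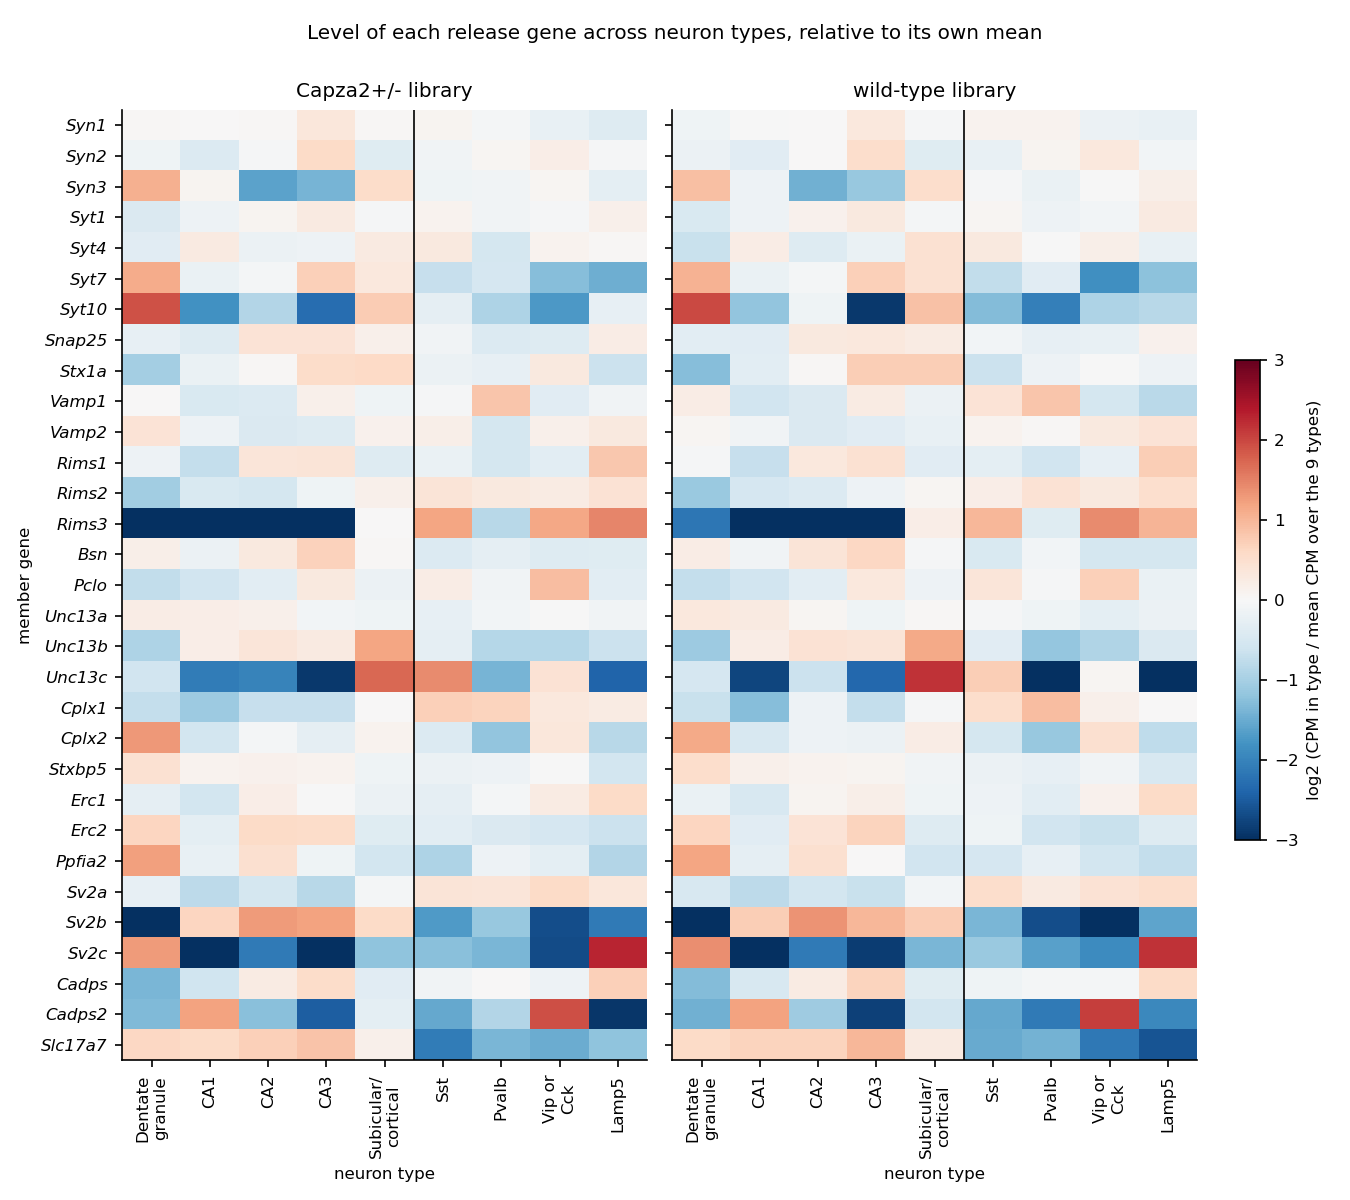
Each row is 1 of the 31 release genes and each column 1 of 9 neuron types, excitatory to the left of the line and interneurons to the right, with the heterozygote library in the left panel and the wild-type library in the right. Colour is the log2 of the CPM in a type over the gene's mean CPM across the 9 types, clipped at 3 on either side, with types at 0 UMIs drawn at a floor of 3 UMIs. The 2 panels look alike for the rows with strong colour, among them Sv2b (blue in dentate granule), Sv2c (red in Lamp5) and Cadps2 (red in CA1 and in Vip or Cck), and Rims3, which rests on few UMIs, is coloured by counts of 0 to 48 per type.

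The SV2 genes encode vesicle transporter-like glycoproteins that bind synaptotagmin, and Sv2b and Sv2c were among the genes with the widest ranges across types. The highest type of Sv2b differed from that of Sv2c, and that of Sv2a was not the same in both libraries. For all 3, the 100 bases before each start site are shown, from the RefSeq promoter table of GRCm38.p6, 5′ to 3′ on the gene's own strand, cut so as to end before the start of the gene in the GENCODE M21 annotation. Capitals mark a match to the GC box GGGCGG or the TATA motif TATAAA on either strand, here each on the opposite one.
Sv2a (chr3:96181051-96181150, plus strand): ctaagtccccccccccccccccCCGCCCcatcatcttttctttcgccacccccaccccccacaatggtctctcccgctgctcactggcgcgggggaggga
Sv2b (chr7:75309263-75309362, minus strand): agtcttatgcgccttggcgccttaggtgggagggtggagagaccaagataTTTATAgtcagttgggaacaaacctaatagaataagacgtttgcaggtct
Sv2c (chr13:96132578-96132677, minus strand): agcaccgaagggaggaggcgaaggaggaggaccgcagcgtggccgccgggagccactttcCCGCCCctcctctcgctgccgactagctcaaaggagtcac
The promoter table listed 4 promoters for Sv2b, and the 1 nearest the start of the gene is shown. Over the whole 300 bases of the table, from 250 before to 50 after the start, the GC content was 68.0% for Sv2a, 51.3% for Sv2b and 71.7% for Sv2c. The 300 bases of this Sv2b promoter also held a match to GGGCGG, outside the letters printed. The table had an entry for 25 of the 31 release genes (30 promoters). Counted by promoter, TATAAA was found in 2 of the 30 (6.67%), both of Sv2b, against 13.6% of all 32851 promoters. GGGCGG was found in 21 of the 30 (70%) against 35.7% of all promoters. The cyclic AMP response element TGACGTCA was found in 1 of the 30 (3.33%), that of Syn1, against 1.79% of all. A match is a description of the letters and not a site in use.

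Sv2b (ENSMUSG00000053025, chr7:75114894-75309262, minus strand) was highest in CA2, with CA1, CA3 and subicular nuclei also high, and was lowest in dentate granule nuclei. Sv2b measured, in CPM in the heterozygote library, 16.2 in dentate granule, 370.1 in CA1, 575 in CA2, 545 in CA3, 349.6 in subicular, 73.3 in Sst, 108 in Pvalb, 37.5 in Vip or Cck and 54.6 in Lamp5 nuclei. The wild-type values were 15.2 in dentate granule, 346 in CA1, 527 in CA2, 416 in CA3, 354 in subicular, 80.6 in Sst, 32.6 in Pvalb, 22.8 in Vip or Cck and 68.8 in Lamp5 nuclei. CA2 was the highest type, at 575 (547 to 603) and 527 (505 to 549.8) CPM, and dentate granule the lowest, at 16.2 (14.2 to 18.3) and 15.2 (12.97 to 17.7). In granule nuclei this was 0.120 and 0.112 UMIs per nucleus, at the level of astrocyte nuclei (0.115 and 0.115), so Sv2b was not separable from background there. Further excitatory clusters without a regional name, numbered 12 (led by Dcn) and 21 (led by Fn1 and Nts), also carried it, at 485 and 526 and at 568 and 559 CPM in the heterozygote and wild-type libraries.

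Sv2c (ENSMUSG00000051111, chr13:95954594-96132577, minus strand) was highest in Lamp5 and dentate granule nuclei, where Sv2b was low. CPM of Sv2c in the heterozygote library were 81.5 in dentate granule, 3.16 in CA1, 7.75 in CA2, 0.488 in CA3, 14.4 in subicular, 14.0 in Sst, 13.04 in Pvalb, 5.23 in Vip or Cck and 162 in Lamp5 nuclei. Those of wild type were 68.7 in dentate granule, 2.31 in CA1, 6.001 in CA2, 3.65 in CA3, 10.1 in subicular, 12.1 in Sst, 8.44 in Pvalb, 7.07 in Vip or Cck and 117 in Lamp5 nuclei. It was highest in Lamp5 nuclei, at 162 (131 to 198) and 117 (95.4 to 143) CPM, followed among the named types by dentate granule nuclei, whose intervals lay below those of Lamp5. Excitatory cluster 11, led by Npsr1 and also without a regional name, held Sv2c at 48.7 (36.3 to 64.0) and 81.1 (67.0 to 97.4) CPM. CA3 held 2 UMIs of it in the heterozygote and 11 in the wild-type library over all nuclei of the type. The ratio of Sv2b to Sv2c UMIs was 117 (82.4 to 173) in CA1 and 0.198 (0.172 to 0.228) in dentate granule nuclei of the heterozygote library, and 149.7 (98.7 to 239) and 0.221 (0.186 to 0.262) in the wild-type library. Lamp5 was the other type with a ratio below 1, at 0.337 (0.218 to 0.508) and 0.586 (0.416 to 0.818). Sv2a, known from nearly all neurons, ran from 75.2 CPM in CA3 to 199.7 in Vip or Cck nuclei of the heterozygote library and from 81.5 in CA1 to 202 in Sst nuclei of the wild-type library, and was above all 5 excitatory types in each of the 4 interneuron types. Its CPM exceeded all 3 glial types in 0 neuron types of the heterozygote library and in 3 of the wild-type library.

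**Figure D2:**
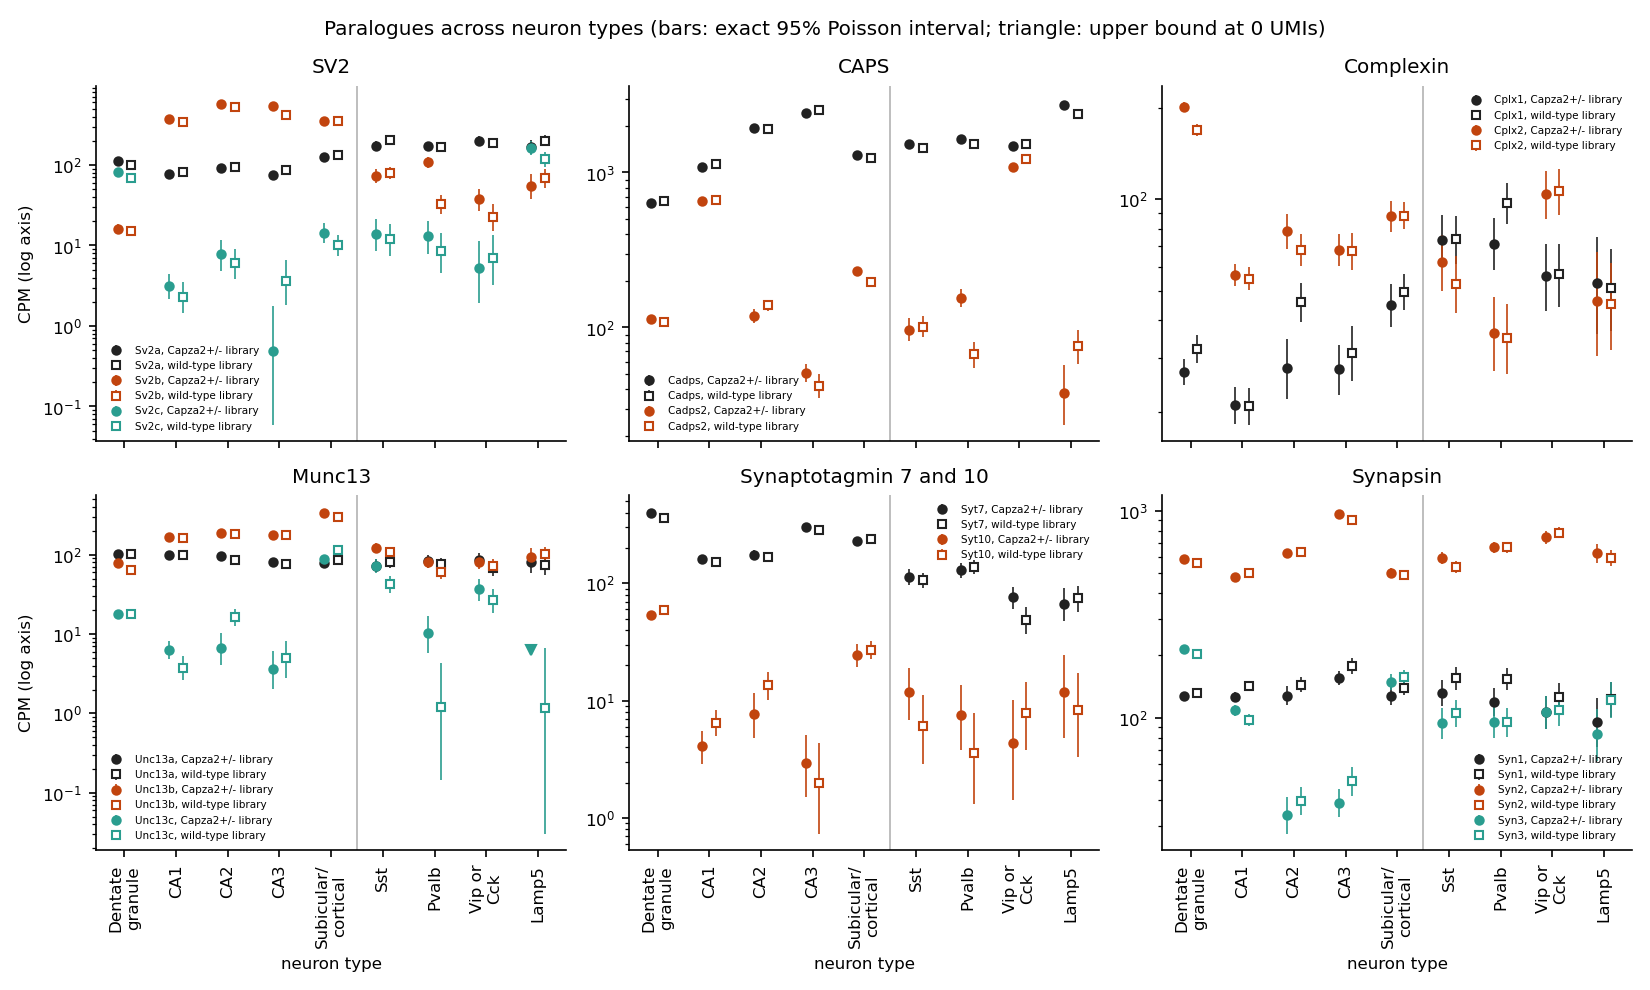
CPM on a log axis in each of 9 neuron types for 6 paralogue groups, with filled circles for the heterozygote and open squares for the wild-type library, bars for the exact 95% Poisson interval and a triangle for the upper bound where no UMI was seen. Each colour is 1 gene and is to be followed across types: Sv2b is lowest in dentate granule nuclei at 16.2 and 15.2 CPM, and Sv2c highest in Lamp5 nuclei at 162 and 117 CPM.

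Of the synapsins, phosphoproteins that tether vesicles to one another and to actin, Syn3 differed most across types. Syn3 (ENSMUSG00000059602, chr10:86055125-86498896, minus strand) was highest in dentate granule nuclei, at 214 (207 to 222) and 203 (194 to 211) CPM, and lowest in CA2. By type, the heterozygote library gave Syn3 CPM of 214 in dentate granule, 109 in CA1, 33.8 in CA2, 38.8 in CA3, 149.5 in subicular, 94.2 in Sst, 95.4 in Pvalb, 106 in Vip or Cck and 83.7 in Lamp5 nuclei. Syn3 in wild type gave 203 in dentate granule, 97.3 in CA1, 39.8 in CA2, 49.4 in CA3, 158 in subicular, 105 in Sst, 95.3 in Pvalb, 108 in Vip or Cck and 122 in Lamp5 nuclei. CA2 and CA3 were the 2 lowest types for Syn3 in both libraries, while Syn2 was highest in CA3, at 963 (933 to 993) and 906 (872 to 940.5) CPM. The lowest Syn2 value was 481 CPM in CA1 in the heterozygote library and 492 in subicular nuclei in the wild-type library. Syn1 was nearly flat, from 95.6 CPM in Lamp5 to 157 in CA3 in the heterozygote library and from 123 to 178 in the same types of the wild-type library, and in neither library did the interval of CA3 lie above that of the next type.

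Slc17a7 (ENSMUSG00000070570, chr7:45163949-45176142, plus strand), which encodes the vesicular glutamate transporter VGLUT1, checks the naming of types, since it is a defining gene of hippocampal glutamatergic neurons and was not among the markers. For Slc17a7 the heterozygote CPM were 227 in dentate granule, 216 in CA1, 242 in CA2, 264 in CA3, 161 in subicular, 34.2 in Sst, 56.3 in Pvalb, 52.3 in Vip or Cck and 63.2 in Lamp5 nuclei. Wild-type CPM were 213 in dentate granule, 225 in CA1, 229 in CA2, 286 in CA3, 173 in subicular, 50.3 in Sst, 53.7 in Pvalb, 32.2 in Vip or Cck and 23.7 in Lamp5 nuclei. Each excitatory type was above each interneuron type in both libraries. By CPM, Slc17a7 was above all 3 glial types in 4 excitatory types when counted in heterozygote nuclei, and in 5 when counted in wild-type nuclei. Subicular nuclei in the heterozygote library, at 161 CPM, were not above all 3, and neither was any interneuron type in either library. The check thus parts excitatory from interneuron types, but not every neuron type from glia. Interneuron nuclei still gave 0.467 and 0.680 UMIs per nucleus in the Sst type, above the 0.221 and 0.236 per oligodendrocyte nucleus, which hold far fewer UMIs, and the part of free RNA in these values was not tested.

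Among the calcium sensors, Syt7 and Syt10 followed the dentate gyrus. Syt7, a slow high-affinity sensor linked to facilitation and asynchronous release (ENSMUSG00000024743, chr19:10389090-10453180, plus strand), was highest in dentate granule nuclei at 400.3 (390.3 to 410.5) and 364 (353 to 376) CPM, followed by CA3. Syt7 measured, in CPM in the heterozygote library, 400.3 in dentate granule, 161 in CA1, 176 in CA2, 303 in CA3, 229 in subicular, 114 in Sst, 129 in Pvalb, 75.9 in Vip or Cck and 66.6 in Lamp5 nuclei. The wild-type values were 364 in dentate granule, 154 in CA1, 169 in CA2, 286 in CA3, 240.1 in subicular, 106 in Sst, 139 in Pvalb, 48.7 in Vip or Cck and 74.7 in Lamp5 nuclei. All 4 interneuron types lay below all 5 excitatory types. Syt10 (ENSMUSG00000063260, chr15:89782393-89841860, minus strand), a sensor known from dense-core vesicle exocytosis in olfactory neurons, reached 53.6 (50.0 to 57.4) and 58.9 (54.5 to 63.6) CPM in dentate granule nuclei. CPM of Syt10 in the heterozygote library were 53.6 in dentate granule, 4.08 in CA1, 7.75 in CA2, 2.93 in CA3, 24.4 in subicular, 11.9 in Sst, 7.55 in Pvalb, 4.36 in Vip or Cck and 12.0 in Lamp5 nuclei. Those of wild type were 58.9 in dentate granule, 6.51 in CA1, 13.5 in CA2, 1.99 in CA3, 27.1 in subicular, 6.06 in Sst, 3.62 in Pvalb, 7.86 in Vip or Cck and 8.30 in Lamp5 nuclei. Subicular nuclei came second of the named types in both libraries, and CA3 was lowest with 12 and 6 UMIs. Excitatory cluster 11 lay above subicular nuclei for Syt10, at 38.2 and 38.8 CPM.

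Syt1 varied little and was highest in CA3, at 4877 (4809.9 to 4945) and 4730.1 (4653 to 4808) CPM, and lowest in dentate granule nuclei, at 2987 (2959.8 to 3015) and 2818 (2787 to 2849.9). In the wild-type library its Lamp5 interval overlapped that of CA3. Syt4, a synaptotagmin that lacks normal calcium binding, was lowest in Pvalb nuclei of the heterozygote library (35.7 CPM) and in dentate granule nuclei of the wild-type library (36.1 CPM). Its highest values among the 9 types were 63.5 CPM in Sst and 79.0 CPM in subicular nuclei, in that order of libraries, and neither stood clear of the next type. Excitatory cluster 11 lay above these types, at 201 (175 to 231) and 150 (130 to 171) CPM. Cluster 12 gave 89.1 and 87.4 CPM and cluster 21 gave 112 and 110 CPM.

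None of the 4 SNARE genes had a highest type of 4 times the lowest in both libraries. Snap25, the plasma membrane SNARE with 2 helices in the complex, was highest in CA2 in the heterozygote library (1278 CPM) and in CA3 in the wild-type library (1099.8 CPM), and the intervals of these 2 types overlapped in both. Its lowest values were 726 CPM in Pvalb and 699 CPM in CA1 nuclei, in the same order of libraries. Snap25 in excitatory cluster 12 stood at 1319 and 1378 CPM, the latter above the CA3 value of the wild-type library. Stx1a, the syntaxin partner, was lowest in dentate granule nuclei in both, at 10.54 (8.97 to 12.3) and 11.5 (9.54 to 13.6) CPM, and highest in subicular nuclei of the heterozygote library (32.2) and CA3 of the wild-type library (46.1). Vamp1 was highest in Pvalb nuclei in both libraries, at 29.5 (21.4 to 39.8) and 25.9 (18.8 to 34.9) CPM, on 43 UMIs in each, and its intervals there overlapped those of the next type. Its lowest type was CA1 (11.9) in the heterozygote and Lamp5 (8.30) in the wild-type library. Vamp2 ranged from 28.1 CPM in Pvalb to 54.2 in dentate granule nuclei of the heterozygote library and from 34.5 in CA2 to 61.7 in Lamp5 nuclei of the wild-type library, all below its CPM in glia.

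Complexins bind the assembled SNARE complex, where they both clamp and promote fusion, and the 2 genes split by type. Cplx2 (ENSMUSG00000025867, chr13:54371349-54383917, plus strand) was highest in dentate granule nuclei, at 201 (194 to 209) and 169 (161 to 177) CPM, and lowest in Pvalb nuclei. Its CPM exceeded all 3 glial types in 0 neuron types of the heterozygote library and in 1 of the wild-type library. By type, the heterozygote library gave Cplx2 CPM of 201 in dentate granule, 56.5 in CA1, 78.6 in CA2, 68.1 in CA3, 87.9 in subicular, 62.1 in Sst, 36.4 in Pvalb, 104 in Vip or Cck and 46.1 in Lamp5 nuclei. Cplx2 in wild type gave 169 in dentate granule, 54.8 in CA1, 68.3 in CA2, 67.6 in CA3, 88.4 in subicular, 52.7 in Sst, 35.0 in Pvalb, 106 in Vip or Cck and 45.1 in Lamp5 nuclei. Cplx1 (ENSMUSG00000033615, chr5:108518554-108550024, minus strand) was lowest in CA1, at 21 and 20.9 CPM, and higher in each interneuron type than in each excitatory type, with its highest value in Sst nuclei of the heterozygote library, at 73.3 (59.9 to 88.7) CPM, and in Pvalb nuclei of the wild-type library, at 97.1 (82.7 to 113) CPM. The ratio of Cplx1 to Cplx2 UMIs was 1.96 (1.40 to 2.79) and 2.78 (2.04 to 3.82) in Pvalb nuclei, against 0.134 (0.121 to 0.149) and 0.190 (0.169 to 0.213) in dentate granule nuclei. Vip or Cck nuclei were the interneuron type with a ratio below 1, at 0.538 (0.391 to 0.735) and 0.533 (0.395 to 0.715). Stxbp5, which encodes the SNARE-binding inhibitor tomosyn, was highest in dentate granule nuclei (294 and 291 CPM) and lowest in Lamp5 nuclei (147 and 145 CPM).

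**Figure D3:**
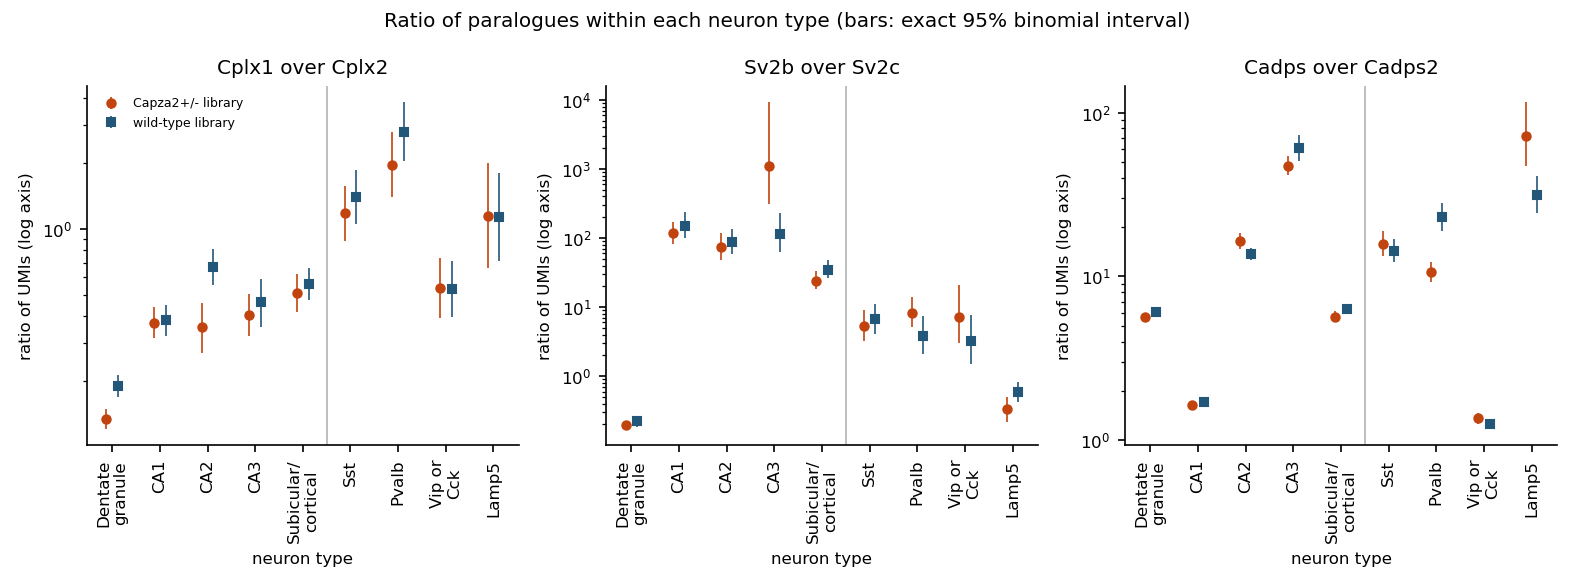
Ratio of UMIs of 2 paralogues within each neuron type, on a log axis, for Cplx1 over Cplx2, Sv2b over Sv2c and Cadps over Cadps2, with orange circles for the heterozygote and blue squares for the wild-type library and bars for the exact 95% binomial interval. The complexin ratio is lowest in dentate granule nuclei (0.134 and 0.190) and highest in Pvalb nuclei (1.96 and 2.78), and the CAPS ratio is lowest in CA1 and in Vip or Cck nuclei. The Sv2b over Sv2c ratio of CA3 in the heterozygote library rests on 2 Sv2c UMIs.

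The priming factors of the Munc13 family were split between a flat and 2 patterned genes. Unc13a, which encodes Munc13-1, the main priming factor of forebrain synapses, was highest in dentate granule nuclei (102 and 104 CPM) and lowest in Sst nuclei of the heterozygote library (73.3) and Vip or Cck nuclei of the wild-type library (67.6). Unc13b (ENSMUSG00000028456, chr4:43058953-43264871, plus strand), encoding Munc13-2, was highest in subicular nuclei, at 332 (313 to 352) and 303 (287 to 319.7) CPM. For Unc13b the heterozygote CPM were 78.1 in dentate granule, 169 in CA1, 189.6 in CA2, 178 in CA3, 332 in subicular, 121 in Sst, 81.7 in Pvalb, 82.0 in Vip or Cck and 93.9 in Lamp5 nuclei. Wild-type CPM were 64.1 in dentate granule, 161 in CA1, 185 in CA2, 179 in CA3, 303 in subicular, 109 in Sst, 61.5 in Pvalb, 73.1 in Vip or Cck and 102 in Lamp5 nuclei. Within the subicular type, the cluster led by Vwc2l reached 469 and 470.5 CPM, the cluster led by Foxp2 201 and 198 and the cluster led by Unc13c and Cpa6 214 and 173.

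Unc13c (ENSMUSG00000062151, chr9:73479422-73968966, minus strand), encoding Munc13-3, which is best known from the cerebellum, was carried by few clusters. Unc13c measured, in CPM in the heterozygote library, 18.1 in dentate granule, 6.32 in CA1, 6.70 in CA2, 3.66 in CA3, 89.4 in subicular, 72.6 in Sst, 10.3 in Pvalb, 36.6 in Vip or Cck and 0 in Lamp5 nuclei. The wild-type values were 18.1 in dentate granule, 3.78 in CA1, 16.3 in CA2, 4.97 in CA3, 115 in subicular, 42.4 in Sst, 1.21 in Pvalb, 26.7 in Vip or Cck and 1.19 in Lamp5 nuclei. Subicular nuclei were highest in both libraries, and almost all of this came from the cluster with Cpa6 among its leading genes, at 288 and 296 CPM, against 12.6 and 24.6 in the Vwc2l cluster and 1.28 and 0.979 in the Foxp2 cluster. Sst nuclei came next, with an interval that overlapped that of subicular nuclei in the heterozygote but not in the wild-type library, at 72.6 (59.3 to 87.9) and 42.4 (33.1 to 53.6) CPM. Lamp5 nuclei held 0 and 1 UMIs in the whole type. Excitatory cluster 11 was at 61.1 and 41.6 CPM. Astrocyte nuclei also carried it, at 44.6 and 88.0 CPM, while oligodendrocyte nuclei were at 1.35 and 1.88.

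CAPS proteins prime dense-core and synaptic vesicles. Cadps2 (ENSMUSG00000017978, chr6:23262773-23839421, minus strand) was highest in Vip or Cck and CA1 nuclei. CPM of Cadps2 in the heterozygote library were 113 in dentate granule, 657 in CA1, 119 in CA2, 51.0 in CA3, 230.2 in subicular, 97.0 in Sst, 154 in Pvalb, 1086 in Vip or Cck and 37.6 in Lamp5 nuclei. Those of wild type were 108 in dentate granule, 667 in CA1, 139 in CA2, 42.1 in CA3, 197 in subicular, 101 in Sst, 67.0 in Pvalb, 1222 in Vip or Cck and 75.9 in Lamp5 nuclei. Vip or Cck nuclei were highest, at 1086 (1027 to 1148) and 1222 (1162 to 1284) CPM, with CA1 next. The unnamed excitatory clusters 12 and 21 reached 1221 and 1064 CPM, and 1158 and 1057 CPM, in that order, whereas cluster 11, led by Npsr1, was at 45.8 and 53.6. Cadps, its paralogue (ENSMUSG00000054423, chr14:12372563-12823079, minus strand), was lowest in dentate granule nuclei, at 637 and 650.0 CPM, and highest in Lamp5 nuclei of the heterozygote library (2708) and CA3 of the wild-type library (2548). Cadps UMIs outnumbered Cadps2 UMIs by 47.4 (41.3 to 54.6) and 60.5 (50.8 to 72.7) to 1 in CA3, and by 1.65 (1.60 to 1.70) and 1.70 (1.65 to 1.76) in the neighbouring CA1.

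Of the active zone genes, Rims1 and Rims2, which encode RIM proteins that recruit calcium channels and tether vesicles, were highest in Lamp5 nuclei. Rims1 stood there at 3100.2 (2959 to 3246) and 2819.8 (2708 to 2935) CPM, above CA3, the next type, and was lowest in CA1 (1073 and 1051). Rims2 was at 1139 and 1161 CPM in Lamp5, not separable from the next interneuron type, and lowest in dentate granule nuclei (406 and 378). Rims3 held too few UMIs for a ranking, with at most 23.9 CPM in Lamp5 nuclei of the heterozygote and 25.1 CPM in Vip or Cck nuclei of the wild-type library, and 0 UMIs in CA3 of the heterozygote library and 1 in CA2 of the wild-type library. The ELKS genes differed: Erc1 was highest in Lamp5 (352 and 355 CPM) and lowest in CA1 (161 and 169), while Erc2 was highest in dentate granule nuclei of the heterozygote library (2751) and CA3 of the wild-type library (2575) and lowest in Lamp5 (1125) and in Vip or Cck nuclei (1022).

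The 2 giant scaffolds also parted. Bsn, encoding Bassoon, was highest in CA3, at 191 (178 to 205) and 187 (172 to 203) CPM, and lowest in Sst nuclei of the heterozygote (90.02) and Vip or Cck nuclei of the wild-type library (83.3). Pclo, encoding Piccolo, was highest in Vip or Cck nuclei, at 1548 (1477 to 1622) and 1240.2 (1179.7 to 1303) CPM, and lowest in dentate granule nuclei (489 and 462). Ppfia2, encoding liprin-alpha-2, which organises vesicle pools, was highest in dentate granule nuclei at 3135 (3107 to 3163) and 3085 (3052 to 3118) CPM, with CA2 next at 1872 and 1866, and lowest in Sst nuclei of the heterozygote (701) and Lamp5 nuclei of the wild-type library (824).

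Between the libraries 3 values of release genes were past 1.5-fold: Sv2b and Cadps2 were higher in Pvalb nuclei and Cplx1 lower in CA2 nuclei of the heterozygote library. Of the 279 combinations of a gene and a type, 208 reached 200 UMIs summed over the libraries, and for these the CPM of the heterozygote library was divided by that of the wild-type library and put on the log2 scale. In the heterozygote library 2 of the 208 (0.962%) were at least 1.5-fold higher, where 0.78% of all 42053 combinations were, and 1 (0.481%) was at least 1.5-fold lower, where 0.896% were. At a fold of 1.2 the counts were 10 higher (4.81%, where 6.74% of all combinations were) and 10 lower (4.81%, where 10.9% were). Neither share of the release genes stood above that of all genes at a fold of 1.2. An interval above 0 in 1 type and below 0 in another was seen for 9 of the 30 genes, where 8.37% of all genes had one, over fewer types per gene on average than the release genes. Their median log2 ratio ranged over the 9 types from -0.0088 in Sst to 0.087 in Pvalb nuclei, and that of all genes from -0.052 in CA2 to -0.0030 in dentate granule nuclei.

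**Figure D4:**
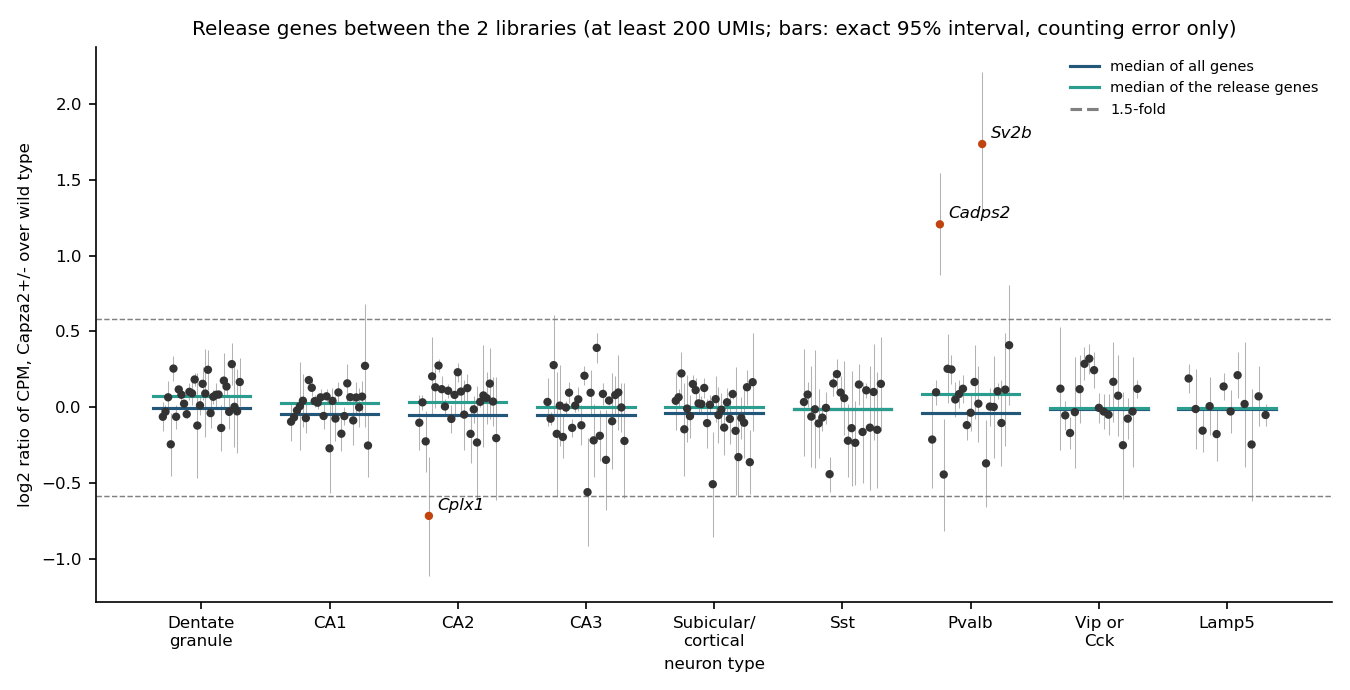
Log2 of the heterozygote CPM divided by the wild-type CPM for each release gene with at least 200 UMIs in a type, with bars for the exact 95% interval from counting error. Green lines are the median of the release genes, blue lines the median of all genes in the type, and dashed lines mark 1.5-fold: 3 of 208 points lie outside them, Sv2b and Cadps2 in Pvalb and Cplx1 in CA2 nuclei.

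The highest and the lowest ratio among the release genes of each type were as follows, all on the log2 scale. They were Unc13b at 0.28 and Cplx1 at -0.24 in dentate granule, Vamp1 at 0.27 and Stx1a at -0.27 in CA1, Sv2b at 0.39 and Stx1a at -0.56 in CA3 and Cadps2 at 0.22 and Stx1a at -0.51 in subicular nuclei. Among interneurons they were Rims2 at 0.22 and Ppfia2 at -0.44 in Sst, Pclo at 0.32 and Syn1 at -0.25 in Vip or Cck and Snap25 at 0.21 and Sv2a at -0.25 in Lamp5 nuclei. In CA2 the highest was Erc2 at 0.27, and in Pvalb nuclei the lowest was Cplx1 at -0.44. Stx1a was thus the lowest gene in 3 of the 9 types. Its ratio was below 0 in 8 of 9, but only 4 types were past the minimum, all 4 below 0. Syn1 was below 0 in 9 of 9 types, between -0.37 and -0.039 in the 8 past the minimum. Stxbp5 was above 0 in 9 of 9, between 0.013 and 0.17. All types come from the same 2 libraries, so these runs of 1 sign are not repeats. How many of all genes have such runs is not given here, and the median ratio of all genes was itself below 0 in each of the 9 types.

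Both genes that were higher rested on few Pvalb nuclei. Sv2b had 158 UMIs in the 74 heterozygote and 54 in the 116 wild-type Pvalb nuclei, 108 against 32.6 CPM, a log2 ratio of 1.74 (1.28 to 2.21). Cadps2 had 225 and 111 UMIs, 154 against 67.0 CPM, a log2 ratio of 1.21 (0.87 to 1.55). In this type 3.69% of all 2630 genes compared were at least 1.5-fold higher. Sv2b was seen in 20 of the 74 heterozygote nuclei and 22 of the 116 wild-type nuclei, and Cadps2 in 20 and 31. A single heterozygote barcode carried 82 of the Sv2b and 96 of the Cadps2 UMIs. That barcode held 328355 UMIs in 12955 genes, 22.5% of all UMIs of the heterozygote Pvalb type. Markers of other cells also differed, and their part in both results was not tested: general excitatory markers summed to 1861 and 1237 CPM in heterozygote and wild-type Pvalb nuclei, with 7 of 8 higher in the heterozygote library and 0 of 8 at 0 in either, oligodendrocyte markers to 426 and 162 CPM, with 8 of 8 higher and 0 at 0, and inhibitory markers to 11966 and 14268 CPM, with 1 of 8 higher. Without the barcodes above 60000 UMIs, 1 in each library's Pvalb type, Sv2b came to a log2 ratio of 1.13 (0.59 to 1.67) on 76 and 49 UMIs, below the minimum, and Cadps2 to 0.82 (0.43 to 1.205), while the excitatory sum came to 1279 and 1113 CPM and the oligodendrocyte sum to 215 and 138. Among nuclei with at least 1000 genes, and with each nucleus weighted alike, Cadps2 was not past 1.5-fold, at 0.49 and 0.38.

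The gene that was lower was Cplx1 in CA2 nuclei, with 79 UMIs in 142 heterozygote and 183 in 234 wild-type nuclei, 27.8 (22.05 to 34.7) against 45.8 (39.4 to 52.9) CPM and a log2 ratio of -0.72 (-1.12 to -0.33). In this type 2.6% of all 4803 genes compared were at least 1.5-fold lower. It was spread over nuclei, with a UMI in 57 heterozygote and 115 wild-type nuclei and at most 4 and 10 in any nucleus. The CA2 type held CA2 markers at 225 and 188 CPM and mossy cell markers at 93.1 and 106 CPM, with 0 of 7 mossy markers higher in the heterozygote library, and at the finer clustering, where nuclei with mossy markers split off, the Cplx1 ratio was -0.73 on 59 and 120 UMIs, below the minimum of 200. Inhibitory markers summed to 149 and 62.0 CPM there, with 6 of 8 higher in the heterozygote library and 0 and 1 at 0. Markers of committed oligodendrocyte precursors summed to 63.1 and 25.3 CPM, with 6 of 6 higher and 0 and 2 at 0, and Cajal-Retzius markers to 21.5 and 9.75 CPM, with 4 of 7 higher and 1 and 1 at 0. The part of these other markers in the result was not tested. When each nucleus was thinned to 1000 UMIs, 6 and 8 Cplx1 UMIs were left and the ratio was 0.31, so at that depth a difference was not detectable.

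**Figure D5:**
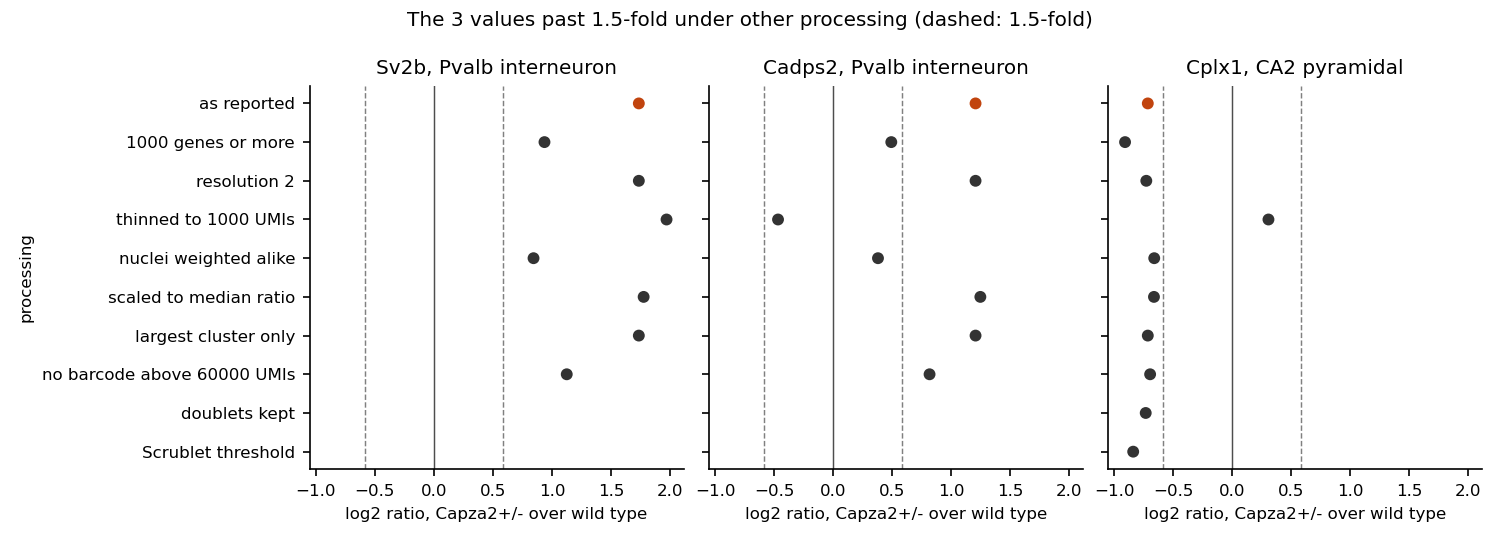
Log2 ratio, heterozygote over wild-type library, of the 3 values past 1.5-fold, recomputed under other processing, 1 row for each, with the reported value in orange and dashed lines at 1.5-fold. Sv2b lies above 1.5-fold in each setting that gives a value, but on fewer than 200 UMIs, and so not counted, with at least 1000 genes (85 and 62 UMIs), on thinned counts (5 and 2) and without barcodes above 60000 UMIs (76 and 49). Cadps2 lies inside the lines in 3, among them -0.47 on thinned counts, and Cplx1 lies past the lower line except on thinned counts (0.31), with under 200 UMIs at a resolution of 2 (59 and 120). Settings without a point merged the Pvalb with the Sst nuclei.

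A further 51 genes of the release pathway, among them other synaptotagmins, Rab3 proteins, channel subunits, adaptors and recycling enzymes, were measured alongside. Of these, 47 had a type past 200 UMIs, and 290 combinations with a type were compared. Of them 1 was at least 1.5-fold higher in the heterozygote library (0.345%), Lin7a in CA3, and 2 were lower (0.690%), Syt17 in CA2 and Lin7a in Vip or Cck nuclei. Lin7a, a small PDZ scaffold that binds CASK, stood at 86.7 against 53.7 CPM in CA3, where 0.276% of all genes were past that fold, and at 91.5 against 189 in Vip or Cck nuclei, where 0.998% were lower. Syt17 stood at 26.1 against 49.8 CPM in CA2. Of the 47, 32 had the same highest type in both libraries and 15 a highest type of at least 4 times the lowest. Rab3b, a vesicle GTPase, and Synpr, encoding synaptoporin, a vesicle protein of mossy fibres, had the widest ranges among the 47 when the narrower of the 2 libraries is taken, with 55.8-fold for Rab3b and 33.6-fold for Synpr. In the heterozygote library alone Doc2b, a calcium sensor of spontaneous release, had a wider range than Synpr, at 39.0-fold on 3 UMIs in its lowest type. Rab3b was highest in Sst nuclei at 117 and 112 CPM and lowest in CA2, on 3 and 8 UMIs. Synpr reached 1162 and 989.9 CPM in Sst, 1101 and 1165 in Vip or Cck and 1096 and 918 in dentate granule nuclei, against 34.6 and 24.4 in CA1.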

How the data were processed

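The deposited values are unnormalised UMI counts, made by the authors with Cell Ranger 7.1.0, per the file headers, on the mm10 genome, per the submitters' processing notes. The sources used here do not say whether intronic reads were counted. Barcodes with at least 500 genes and at most 5% mitochondrial UMIs were kept, and the highest Scrublet scores, up to 0.8% per 1000 barcodes, were removed in each library (416 and 330). Both libraries were clustered together (scanpy 1.11.5, leidenalg 0.10.2, 2000 variable genes without release genes, 30 components, 15 neighbours, resolution 1) and named from marker lists. A cluster was set apart if its mean doublet score was 2 times the average or more. It also had to hold a higher median of UMIs than the largest cluster of its name. UMIs were summed per library and type and scaled to CPM. Ratios between the libraries were compared where their UMIs summed to 200 or more, with exact Poisson or binomial 95% intervals (scipy 1.17.1), and the interval code was checked on simulated data. Sums of 0 UMIs were given a floor of 3 UMIs per library and type in ranges. PCR and sampling of nuclei are not covered by these intervals.

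The members, the gene lists and the marker lists were chosen with earlier results of these data known. All 31 genes are given with their highest and lowest type, those with a range of at least 4 times in both libraries with every type, and between libraries those past 1.5-fold and the highest and lowest ratio of each type. Motifs were searched in RefSeq promoters of GRCm38.p6, and gene positions are from GENCODE M21 on GRCm38. Protein sequences were not used here. The alternatives tried were doublets kept, the automatic Scrublet threshold, at least 1000 genes, resolution 2, thinning to 1000 UMIs, equal weight per nucleus, scaling to the median ratio, the largest cluster only, other UMI minimums, a fold of 1.2 and, added after seeing the data, leaving out barcodes above 60000 UMIs.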

Additional observations from a re-analysis of the deposited data

Results flagged for a closer look

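Several release genes had a log2 ratio between the libraries (CPM of the heterozygote divided by that of the wild type) whose counting interval lay above 0 in 1 neuron type and below 0 in another. There were 9 such genes of the 30 compared, where 8.37% of the 10421 genes compared were. The release genes gave 208 combinations of a gene and a type and all genes 42053, so a release gene was compared in more types on average, and the shares are not like for like. For each of the 9, the type with the highest and the type with the lowest such ratio are given. Among vesicle and SNARE genes these were Syn3 (0.16 in CA1 and -0.35 in CA3) and Vamp2 (0.17 in dentate granule and -0.25 in CA1). In the active zone they were Rims1 (0.16 in Sst and -0.046 in dentate granule), Rims2 (0.22 in Sst and -0.12 in Pvalb), Erc1 (0.25 in Pvalb and -0.20 in CA3), Erc2 (0.29 in Vip or Cck and -0.15 in Lamp5) and Ppfia2 (0.24 in Vip or Cck and -0.44 in Sst). Of the priming genes they were Cadps (0.19 in Lamp5 and -0.076 in CA3) and Cadps2 (1.21 in Pvalb and -0.23 in CA2). The difference between types was not tested, since each genotype has 1 library and the intervals cover counting error only. The ratio of Cadps2 in Pvalb nuclei rests on 1 deep barcode for 96 of its 225 heterozygote UMIs.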

How the results depend on the processing

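With 1 library per genotype no value has a replicate check, and no library could be left out. No paired analysis was possible because each genotype has 1 library, so fewer than 2 replicate numbers are shared. The count of release genes with the same highest type in both libraries stayed within 1.5 times of 22 under every alternative that was run for it. With 30 genes counted as reported, this band has no upper end that could fail. Its lower end lies near the 50.2% share of all genes, so it cannot show that the count stayed above that share. The small counts past 1.5-fold moved more. Against the 2 higher and 1 lower values reported, the automatic Scrublet threshold, which marked 5 barcodes in the heterozygote and 650 in the wild-type library, gave 6 higher and 2 lower over 8 types. Nuclei with at least 1000 genes gave 0 and 2, thinned nuclei 1 and 0, and equal weight per nucleus 1 and 2. The largest cluster of each type gave 2 lower, and leaving out barcodes above 60000 UMIs, chosen after seeing the data, gave 1 higher. A minimum of 50 UMIs gave 8 and 7, no minimum 13 and 12, and a fold of 1.2 gave 10 and 10. With doublets kept there were 2 higher and 1 lower, but Pvalb and Sst nuclei merged, so Sv2b and Cadps2 in Pvalb nuclei have no value there or under the automatic threshold. On thinned counts Cadps2 in Pvalb nuclei reversed to -0.47 (6 and 13 UMIs) and Cplx1 in CA2 nuclei to 0.31 (6 and 8 UMIs), where few UMIs were left. Of the values of named genes recomputed, 179 stayed within their counting interval and 22 moved beyond it without reversing a value past 1.5-fold. Among the latter, Ppfia2 in Sst nuclei went from -0.44 to 0.44 and Rims2 from 0.22 to -0.19 under the automatic threshold, where Sst and Pvalb nuclei were merged.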
